A study of Mus musculus with 5 samples.

Results

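Interferon-stimulated genes were examined as a group of 35 genes chosen by name, out of 22287 genes in the deposited table, and all 35 were found there, each in 1 row. The list holds genes induced by type I or type II interferon, and leaves out chemokines and genes of the major histocompatibility complex. The values come from RNA sequencing of mouse liver tumours, in 5 libraries. Wild-type (WT) tumours gave 2 of them, and tumours of lnc-CTHCC-/- mice (KO), which lack a long non-coding RNA, gave 3. All mice were C57BL/6 and had received DEN, a carcinogen activated in the liver, and CCl4, a liver toxicant, over 5 months, so that the WT tumours carry the same carcinogen and injury as the KO tumours. The labels give neither the age of the mice nor the reach of the deletion, and do not say whether the libraries of a group come from separate animals or from separate tumours. The p-values therefore measure the spread between these libraries, which may be technical.

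Levels are FPKM, fragments scaled to the length of the gene and to the fragments of the library, so they can be compared between genes; comparisons between libraries also depend on the scaling. FPKM sums of the libraries lay between 526229 and 552619, and Alb, the gene of serum albumin, took 14.1% to 17.1% of the sum in every library. The number of reads behind each value is unknown. The WT libraries stood apart from each other: WT 1 held the lowest of the 5 values in 46.7% of the 10132 genes tested, and WT 2 the highest in 35.2%. Results on the genotypes are therefore also given without each of them.

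Interferons are secreted by infected, damaged or activated cells and are read by surface receptors on nearly all cell types of the liver. Type I interferons act through Ifnar1 and Ifnar2 and the kinases Jak1 and Tyk2, which activate a complex holding Stat2 and Irf9 that binds the interferon-stimulated response element (ISRE). Type II interferon (interferon gamma, Ifng), made by T and NK cells, acts through Ifngr1 and Ifngr2, and its response is read out at the gamma-activated site (GAS). The induced genes encode sensors of foreign nucleic acid, transcription factors that amplify the response, antiviral effectors and GTPases that attack the vacuoles of intracellular pathogens. In a bulk tumour sample, fewer cells of a type and less RNA per cell cannot be told apart.

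Motifs of the interferon response were searched at the start sites of the members. Sequence was not used to choose the members, but response to interferon was, so an excess of these motifs is no separate trait. RefSeq windows (GRCm38.p6), each from 250 bases before to 50 bases after an annotated start, were matched by symbol for 26 of the 35 members. Dhx58, Iigp1, Mx1, Mx2, Oas2, Parp14, Rtp4, Usp18 and Zbp1 had no entry. The ISRE core was searched as GAAANNGAAA on both strands, with overlapping matches counted, and the GAS as TTCNNNGAA, which reads the same on both strands. An ISRE core stood in 15 of the 26 members (57.7%), where 3.99% of the 27025 genes with a window had one. By window, it was in 50% of 30 member windows and in 3.44% of all 32851. A GAS match stood in 7 of 26 members (26.9%) against 9.55% of all genes with a window, and Bst2, Gbp7, Igtp and Oas1a had both motifs. In 8 of the 26 neither was found: Ifi44, Irf7, Irf9, Oasl1, Oasl2, Samd9l, Trim25 and Xaf1. Such a match describes letters and is no evidence of binding.

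The following stretches show motif matches of members from 6 of the role groups described below, read in the direction of the gene, with 1 ISRE core in capitals and, in Irf1, the GAS match in capitals. Those of Isg15, Oas1a and Irgm1 also hold overlapping ISRE cores that are not capitalised.
Isg15: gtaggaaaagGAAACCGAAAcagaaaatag
Ifit1: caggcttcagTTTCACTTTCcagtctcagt
Oas1a: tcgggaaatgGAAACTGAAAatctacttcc
Rsad2: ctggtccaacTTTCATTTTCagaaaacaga
Stat2: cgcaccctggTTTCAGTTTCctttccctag
Igtp: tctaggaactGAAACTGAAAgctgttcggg
Irgm1: cctgtttcaaGAAATAGAAAccgaaactga
Gbp2: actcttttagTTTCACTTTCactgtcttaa
Irf1: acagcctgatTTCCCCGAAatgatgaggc
The Isg15 stretch lies at chr4:156200871-156200900 (minus strand), with the first base of its motif 72 bases before the start, and the Ifit1 stretch at chr19:34640775-34640804 (plus strand), with its motif 104 bases before it. Those of Oas1a (chr5:120907520-120907549, minus strand), Igtp (chr11:58199512-58199541, plus strand), Irgm1 (chr11:48871431-48871460, minus strand) and Gbp2 (chr3:142620594-142620623, plus strand) begin their motif 14, 34, 30 and 59 bases before the start. Those of Rsad2 (chr12:26456553-26456582, minus strand) and Stat2 (chr10:128270266-128270295, plus strand) lie further out, with the motif 120 and 222 bases before it. The Irf1 stretch is at chr11:53769914-53769942 (plus strand), with its GAS match 90 bases before the start.

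**Figure D1:**
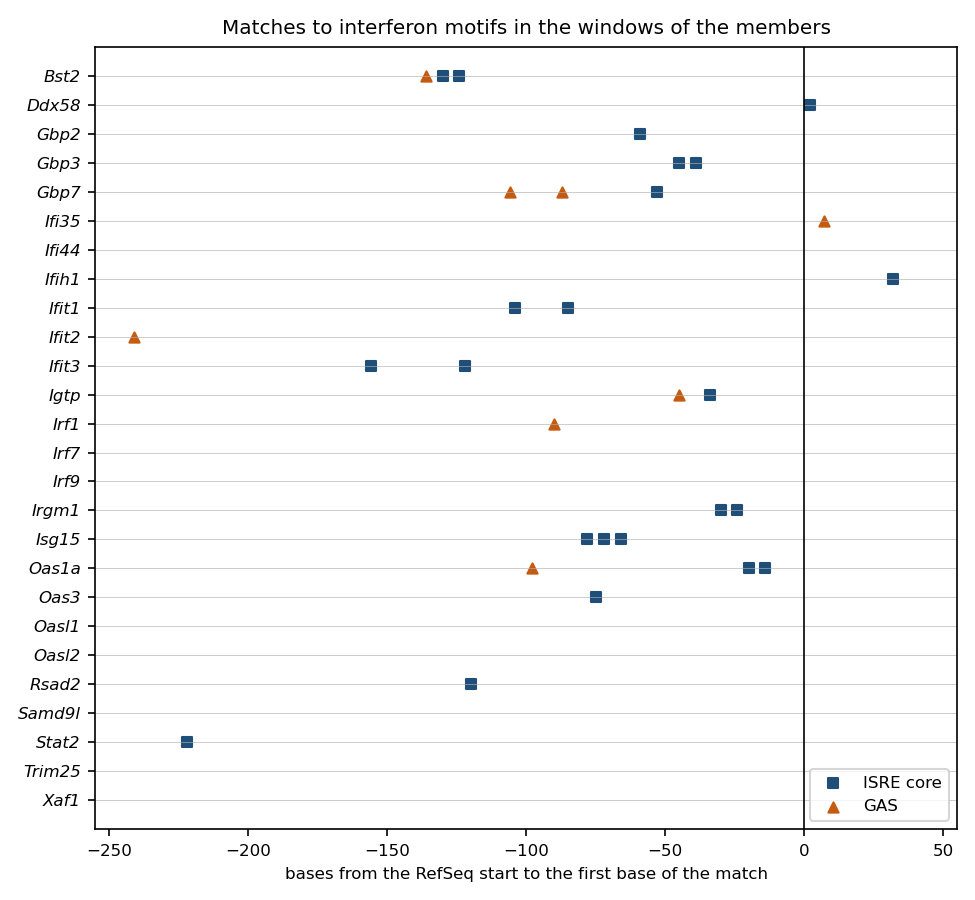
Position of each match to the ISRE core (squares) and the GAS (triangles) in the start-site windows of the 26 matched members; the x axis is the number of bases from the RefSeq start (0, black line) to the first base of the match, and members without a mark had no match. Of 23 ISRE matches, 19 lie within 150 bases before the start.

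Compared with WT tumours, KO tumours showed no interferon-stimulated gene past the threshold of the test across all genes (limma, Benjamini-Hochberg adjusted p under 0.05). Of the 35 members, 31 had a mean of at least 1 FPKM and were tested. None was called higher, where 0.00987% of all genes tested were, and none lower, where 0% were. The adjusted p of each of the 31 was 0.999. At an unadjusted p under 0.05 there were 2 members, Iigp1 and Zbp1, or 6.45% of those tested, beside 3.23% of all genes tested.

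The differences were small and went both ways. On the log2(FPKM + 1) scale, 18 members had a positive and 13 a negative KO minus WT difference, from -0.44 (Usp18) to 0.65 (Iigp1). The median difference of the members was 0.041, and that of all genes tested was 0.051. For 30 of the 31 members (96.8%) the 95% interval lay inside a 2-fold change of FPKM + 1 in either direction, as for 92.7% of all genes tested. The exception was Iigp1. In genes with a low FPKM, this bound allows more than a 2-fold change of FPKM itself. These intervals bound the differences and do not show that the genotypes are alike.

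Leaving out a KO library did not bring any member past the threshold. The smallest limma adjusted p of a member then lay between 0.99899 and 0.99998. With a WT library left out, 1 remains and the spread within WT is not measured, so only differences are given. The median difference of the members was -0.025 without WT 1 and 0.11 without WT 2. The WT libraries differed from each other by more than the genotypes did in 20 of the 31 members (64.5%). This was the case for 74.5% of all genes tested. The WT gap is between single libraries and the genotype difference is between means, which vary less. These measures are unlike, so the shares alone do not show an unusual spread within WT.

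**Figure D2:**
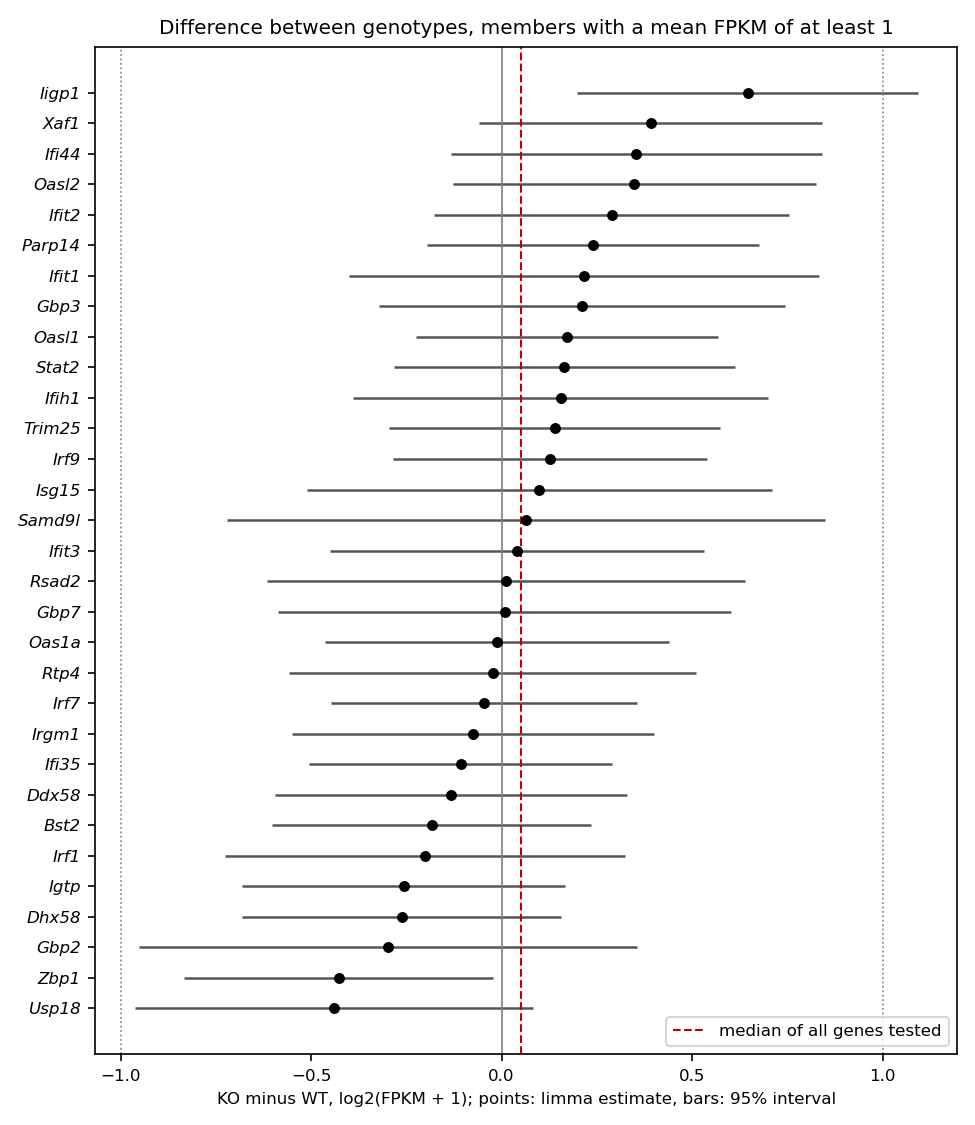
KO minus WT difference on the log2(FPKM + 1) scale for the 31 tested members, ordered by size. Points are limma estimates and bars are 95% intervals. Dotted lines mark a 2-fold change of FPKM + 1, and the dashed line the median of all genes tested (0.051). The intervals of Iigp1 and Zbp1 do not reach 0, and that of Iigp1 (0.20 to 1.09) crosses the 2-fold line.

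In 8 members no value of one genotype fell within the range of the other. Every KO library exceeded both WT libraries in Iigp1, Xaf1, Ifi44, Oasl2, Parp14 and Oasl1 (6 of 31 tested, 19.4%), where 9.78% of all genes tested did so. They lay below in Zbp1 and Dhx58 (2 of 31, 6.45%), where 5.29% of all genes tested did. The split moved with the scaling: after median-ratio rescaling 3 members lay above (Ifi44, Iigp1 and Parp14) and 3 below (Igtp, Usp18 and Zbp1), with 9.16% and 9.30% of all genes, and after quantile normalization the counts of members were the same.

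By level, the members spanned a wide range. Iigp1 was the most abundant with a mean of 153 FPKM over the 5 libraries, followed by Bst2 (39.6), Irf7 (17.2), Irgm1 (16.3), Igtp (13.2), Trim25 (12.5), Zbp1 (10.8) and Rtp4 (10.6). The other 27 members had means under 10 FPKM. The median of the 35 means was 5.63 FPKM, beside 6.22 FPKM over all genes tested. Below the filter of 1 FPKM were Mx2 (0.448), Oas2 (0.374), Oas3 (0.348) and Mx1 (0.210).

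**Figure D3:**
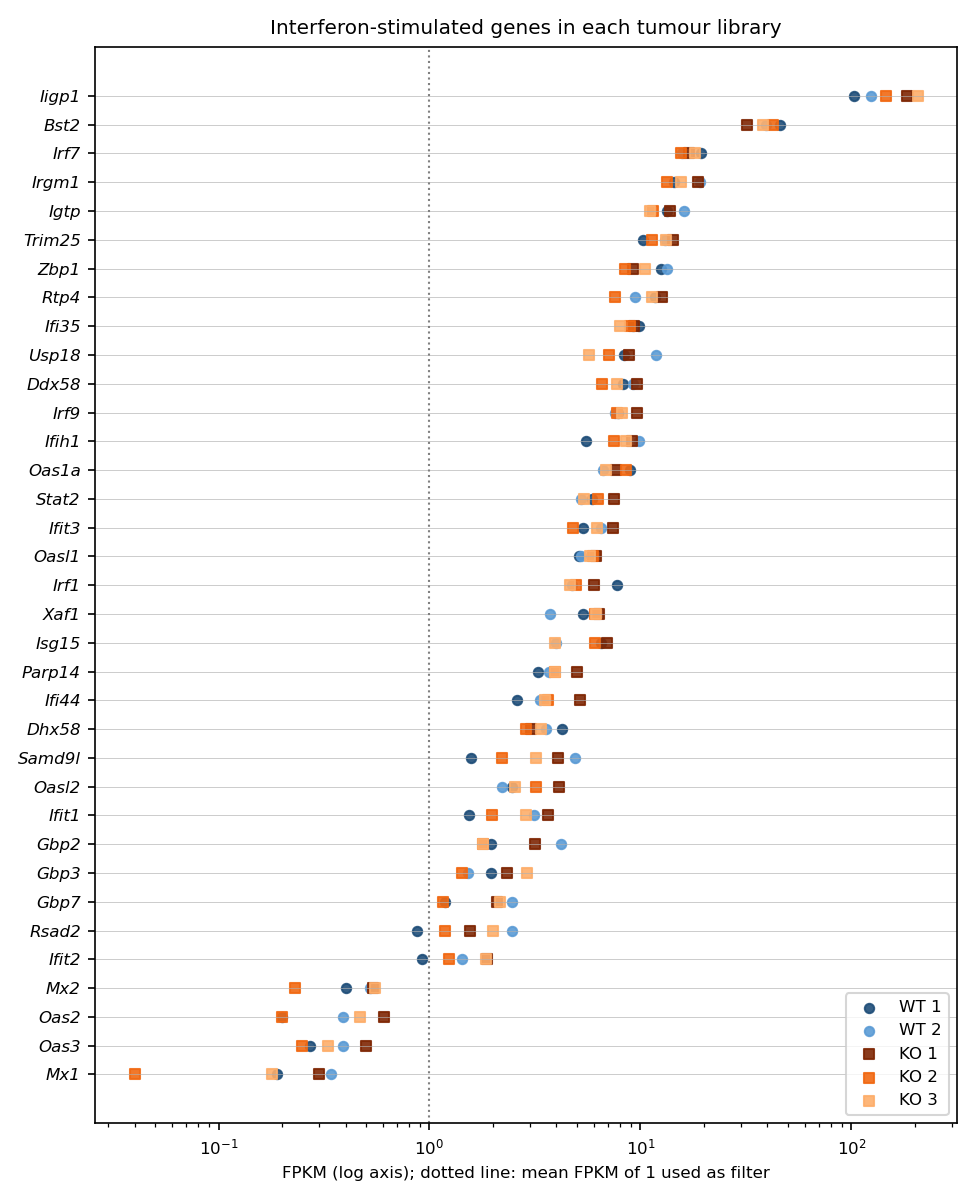
FPKM (log axis) of each member in each library, ordered by the mean of the 5 libraries; circles are WT, squares are KO, and the dotted line is the mean of 1 FPKM used as a filter. Iigp1 starts at 103 FPKM in WT 1, and Mx2, Oas2, Oas3 and Mx1 lie below the filter.

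Of the members, 4 sense nucleic acid that is foreign or misplaced. Zbp1, which binds Z-form nucleic acid and can start necroptosis (chromosome 2, 173206612 to 173218923, minus strand), had 12.6 FPKM in WT 1, 13.4 in WT 2, 9.24 in KO 1, 8.48 in KO 2 and 10.6 in KO 3; values of other members are given in the same order. The KO values were the lower ones without overlap, with a log2 difference of -0.43 (95% interval -0.83 to -0.022, SE 0.179, unadjusted p = 0.041, limma adjusted p = 0.999). It lay between -0.50 and -0.36 with 1 library left out. Dhx58 (LGP2), a helicase that modulates the other sensors, was at 4.25 and 3.58 (WT) and 3.04, 2.87 and 3.37 FPKM (KO). Its difference of -0.26 reached from -0.36 without WT 2 to -0.16 without WT 1, and the lack of overlap was lost after median-ratio rescaling.

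The cytosolic RNA sensors Ifih1 (MDA5) and Ddx58 (RIG-I), which signal through the adaptor Mavs, overlapped between the genotypes. Ifih1 was at 5.55 and 9.86 (WT) and 9.14, 7.53 and 8.57 FPKM (KO), so both WT libraries lay outside the range of the KO libraries. Ddx58 was at 8.30 and 9.23 (WT) and 9.66, 6.57 and 7.74 FPKM (KO).

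In the deposited values, the 4 transcription factors of the response overlapped between the genotypes. Irf7, the factor that amplifies type I interferon production (chromosome 7, 141262706 to 141266481, minus strand), was at 19.3 and 15.8 (WT) and 17.0, 15.7 and 18.1 FPKM (KO). Its libraries spanned 1.23-fold from lowest to highest, with a log2 difference of -0.046 (95% interval -0.45 to 0.36, limma adjusted p = 0.999). Irf9, the DNA-binding subunit of the complex that recognises the ISRE, was at 7.83 and 7.55 (WT) and 9.61, 7.78 and 8.18 FPKM (KO). Stat2, its partner, was at 5.90 and 5.25 (WT) and 7.52, 6.29 and 5.42 FPKM (KO). The differences of Irf9 and Stat2 were 0.13 and 0.16, and in both genes KO 1 held the highest value. With 1 library left out, that of Irf9 lay between 0.047 (without KO 1) and 0.18 (without KO 2), and that of Stat2 between 0.059 (without KO 1) and 0.26 (without KO 3).

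Irf1, the factor induced by interferon gamma (chromosome 11, 53770014 to 53778374, plus strand), carries the GAS match printed above. It was at 7.77 FPKM in WT 1, above all other libraries, at 4.75 FPKM in WT 2 and at 6.04, 4.95 and 4.63 FPKM (KO). The log2 difference of -0.20 turned to 0.10 without WT 1 and was -0.51 without WT 2, so its direction depended on which WT library was used. That of Irf7 turned to 0.089 without WT 1.

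Isg15 is a ubiquitin-like protein attached to other proteins, Usp18 removes it again and blocks signalling from the type I receptor, and Trim25 is the ubiquitin ligase that activates RIG-I. Usp18 (chromosome 6, 121245906 to 121270917, plus strand) had levels of 8.38 and 11.9 (WT) and 8.79, 7.08 and 5.72 FPKM (KO). KO 1 lay above WT 1, so the groups overlapped; the difference of -0.44 (95% interval -0.96 to 0.082, limma adjusted p = 0.999) ranged from -0.67 without WT 1 to -0.21 without WT 2. Isg15 was at 6.48 and 3.96 (WT) and 6.95, 6.10 and 3.92 FPKM (KO), with a high and a low library in each genotype. Trim25 was at 10.3 and 13.1 (WT) and 14.3, 11.4 and 13.2 FPKM (KO).

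The IFIT proteins, which bind viral RNA and block its translation, lie close together on chromosome 19 (from 34550694 to 34650009 for Ifit2, Ifit3 and Ifit1). All 3 had a higher mean in KO, with differences of 0.041 to 0.29 and with overlap. Ifit2 was at 0.92 and 1.43 (WT) and 1.88, 1.24 and 1.85 FPKM (KO), and its difference of 0.29 went from 0.12 without WT 1 to 0.46 without WT 2. Ifit1 was at 1.54 and 3.13 (WT) and 3.64, 1.97 and 2.87 FPKM (KO). Ifit3 was at 5.32 and 6.49 (WT) and 7.42, 4.81 and 6.25 FPKM (KO); it has a close copy, Ifit3b, with which it may share reads. In all 3 genes WT 1 and KO 2 held the lowest values.

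The oligoadenylate synthetases make the small messenger that activates RNase L, except Oasl1, which lacks this activity and restrains the translation of Irf7. Oasl2 was at 2.46 and 2.20 (WT) and 4.09, 3.21 and 2.55 FPKM (KO), without overlap, and its difference of 0.35 (95% interval -0.13 to 0.83) fell to 0.22 without KO 1. Oasl1, its neighbour on chromosome 5, was at 5.12 and 5.24 (WT) and 6.19, 5.93 and 5.78 FPKM (KO). The libraries of each group lay close together in Oasl1, with a difference of 0.17. Both lost their lack of overlap after median-ratio rescaling.

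Oas1a, at 8.96 and 6.66 (WT) and 7.70, 8.51 and 6.87 FPKM (KO), was the most abundant synthetase. All KO values lay between those of WT. Its close copies in the same cluster on chromosome 5, such as Oas1g, make it uncertain how the reads were divided. Oas2 ranged from 0.20 to 0.61 FPKM and Oas3 from 0.25 to 0.50 FPKM over the 5 libraries, both with their maximum in KO 1.

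Of the other antiviral effectors, Bst2 (tetherin), which holds budding virus at the cell surface (chromosome 8, 71534255 to 71537456, minus strand), was at 45.7 and 39.5 (WT) and 31.9, 42.7 and 38.2 FPKM (KO). KO 1 had the lowest value here, while it held the highest in 16 of the 35 members. The difference of Bst2 was -0.18, and -0.073 without KO 1. Rsad2 (viperin), which makes a chain-terminating nucleotide, was at 0.87 and 2.45 (WT) and 1.56, 1.18 and 2.01 FPKM (KO). Samd9l, a restrictor of translation, was at 1.58 and 4.89 (WT) and 4.05, 2.20 and 3.19 FPKM (KO). In Rsad2 and Samd9l the KO values all lay between the WT values, so the spread within WT was the wider one.

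The Mx GTPases trap viral nucleoproteins, but common inbred strains, C57BL/6 among them, carry defective alleles, and GENCODE lists Mx2 as a polymorphic pseudogene. Mx1 ranged from 0.04 FPKM in KO 2 to 0.34 FPKM in WT 2, and Mx2 from 0.23 FPKM in KO 2 to 0.55 FPKM in KO 3. Both lie on chromosome 16, and neither passed the filter.

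The last large role group is that of the interferon-induced GTPases, which coat and break the vacuoles of parasites and bacteria. Iigp1 (Irga6; chromosome 18, 60376027 to 60392634, plus strand) is known to be expressed in liver without infection as well as being induced by interferon. It was at 103 and 124 (WT) and 185, 145 and 207 FPKM (KO), or 113 ± 14.7 FPKM (SD, n = 2) and 179 ± 31.1 FPKM (SD, n = 3). Every KO library thus exceeded both WT libraries. The log2 difference of 0.65 (95% interval 0.20 to 1.09, SE 0.197) had an unadjusted p of 0.00983, the smallest of the members, and a limma adjusted p of 0.999. It was between 0.51 and 0.79 with 1 library left out, and between 0.53 and 0.67 under the other alternatives.

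Iigp1 alone made up 30.4% and 33.5% of the summed FPKM of the members in WT and 42.4%, 40.1% and 47.7% in KO. The members summed to 338 and 368 FPKM (WT) and to 435, 362 and 433 FPKM (KO). Without Iigp1 the sums were 236 and 245 FPKM (WT) and 250, 217 and 227 FPKM (KO), so the higher sums of KO 1 and KO 3 came with Iigp1 and the rest of the sum overlapped between the genotypes.

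Other GTPases did not share this order. Irgm1, which regulates the effector GTPases (chromosome 11, 48861968 to 48871683, minus strand), was at 14.4 and 19.2 (WT) and 18.8, 13.4 and 15.5 FPKM (KO). Its difference of -0.076 was 0.12 without WT 2 and 0.035 without KO 2. Igtp (Irgm3; chromosome 11, 58199556 to 58207591, plus strand), a regulator of the same kind, was at 13.3 and 16.1 (WT) and 13.9, 11.5 and 11.1 FPKM (KO), with KO 1 inside the WT range. Its difference was -0.26, and from -0.38 without WT 1 to -0.13 without WT 2.

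The guanylate-binding proteins Gbp7, Gbp3 and Gbp2 lie in 1 cluster on chromosome 3, from 142530342 to 142638008, with Gbp2b between Gbp3 and Gbp2. Gbp2 was at 1.96 and 4.20 (WT) and 3.16, 1.79 and 1.80 FPKM (KO). Gbp3 was at 1.95 and 1.53 (WT) and 2.34, 1.43 and 2.90 FPKM (KO), and Gbp7 at 1.18 and 2.46 (WT) and 2.09, 1.16 and 2.16 FPKM (KO). The groups overlapped in all 3 genes. Gbp2 and Gbp7 had their highest value in WT 2 and Gbp3 in KO 3, and all 3 had their lowest in KO 2. Reads shared among the similar genes of this cluster make their values uncertain.

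Among the remaining induced genes, Xaf1, a proapoptotic antagonist of the inhibitor XIAP (chromosome 11, 72301629 to 72313733, plus strand), was at 5.36 and 3.73 (WT) and 6.34, 6.06 and 6.18 FPKM (KO). The KO libraries lay close together and above WT, with a difference of 0.39 (95% interval -0.058 to 0.84, unadjusted p = 0.0802, limma adjusted p = 0.999). It was 0.60 without WT 1 and 0.18 without WT 2. Ifi44 (chromosome 3, 151730922 to 151749960, minus strand) had levels of 2.60 and 3.34 (WT) and 5.15, 3.63 and 3.53 FPKM (KO), with a difference of 0.35 that became 0.21 without KO 1 and 0.49 without WT 2. Parp14, an ADP-ribosyltransferase, was at 3.27 and 3.67 (WT) and 5.02, 3.93 and 3.94 FPKM (KO), and its difference of 0.24 became 0.14 without KO 1. In Ifi44 and Parp14, KO 2 and KO 3 were nearly equal and KO 1 stood above them.

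Rtp4, a chaperone of receptors, was at 11.7 and 9.44 (WT) and 12.7, 7.59 and 11.4 FPKM (KO). Ifi35 was among the steadiest members, at 9.82 and 9.19 (WT) and 9.33, 8.96 and 8.0 FPKM (KO), a span of 1.23-fold. Both overlapped between the genotypes.

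By library, the members had KO 1 above KO 2 more often than all genes tested, and WT 2 above WT 1 less often. Other pairs of KO libraries were not counted. KO 1 was above KO 2 in 33 of the 35 members (94.3%), while 64.2% of all genes tested had this order. KO 1 held the highest of the 5 values in 16 members (45.7%, against 31.3% of all genes tested). KO 2 held the highest in none and the lowest in 13 (37.1%, against 11.9%). WT 1 held the lowest in 11 (31.4%, against 46.7%) and WT 2 the highest in 10 (28.6%, against 35.2%). WT 2 was above WT 1 in 22 members (62.9%), and in 72.3% of all genes tested. The shares of the members include 4 genes below the filter, which the shares of all genes tested do not. All these shares describe single libraries and have no replicate check.

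WT 1 and KO 2 were the 2 lowest libraries in 12 of the 35 members (34.3%), and in 26.4% of all genes tested, a pattern looked for after the values had been seen. The 12 were Irgm1, Trim25, Ifih1, Ifit3, Samd9l, Ifit1, Gbp7, Rsad2, Ifit2, Mx2, Oas2 and Oas3. Of these, Mx2, Oas2 and Oas3 were below the filter that all genes tested had passed. The shares therefore cover unlike sets and do not set the members apart. The same order was found in 8 of 12 markers of macrophages and Kupffer cells, the resident macrophages of the liver. The other markers, Clec4f, Marco, Cd5l and Timd4, did not have it. In each of these WT 1 lay above WT 2, with 7.97 and 5.83 FPKM in Clec4f and 26.7 and 17.0 FPKM in Cd5l. The summed FPKM of the 12 markers was 209 and 267 in WT 1 and WT 2 and 298, 161 and 313 in KO 1, KO 2 and KO 3. WT 1 and KO 2 also had the 2 lowest sums for markers of stellate cells and fibroblasts (82.9 and 92.2 FPKM). The same held for cholangiocytes (150 and 154 FPKM) and conventional dendritic cells (2.69 and 2.30 FPKM). Sums of the remaining marker lists did not have this order. No marker was at 0 in all libraries. The part of these cells in the members' values was not tested.

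**Figure D4:**
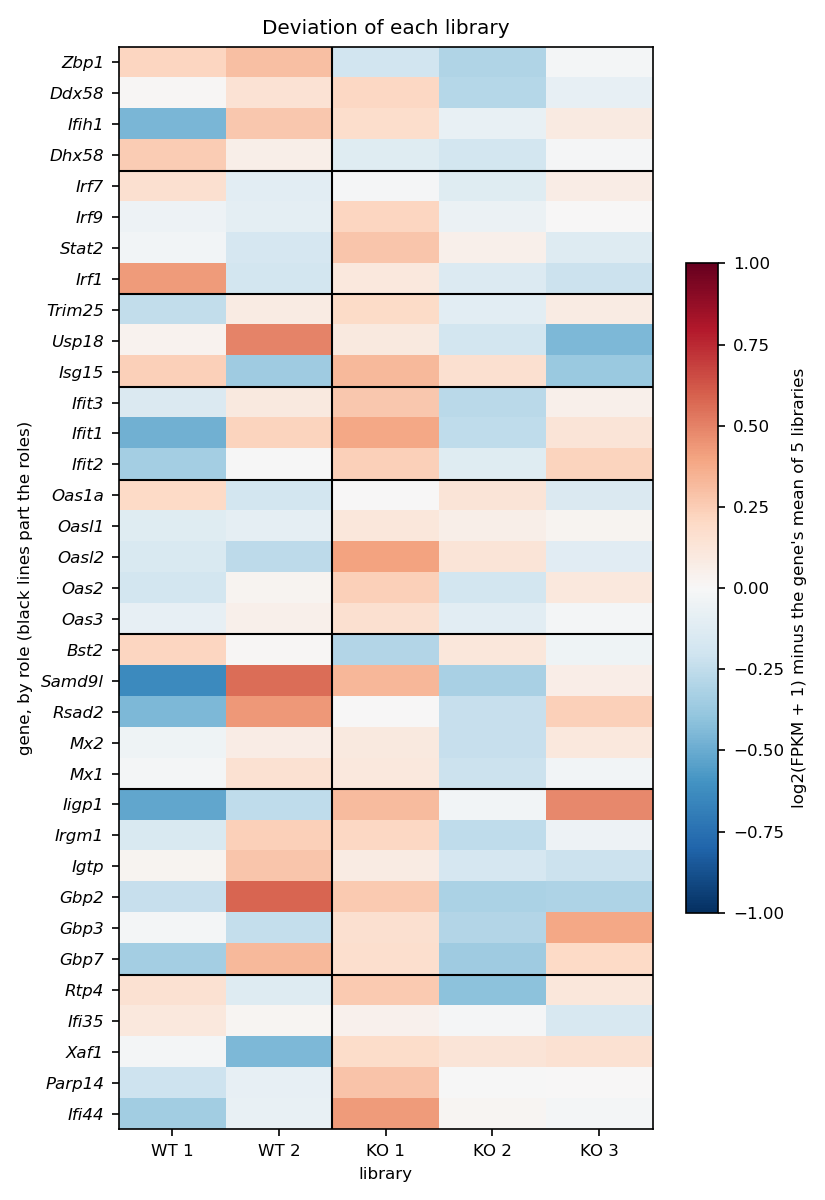
Deviation of each library (columns) from the mean of the 5 libraries for each member (lines of the map, grouped by role), in log2(FPKM + 1); red is higher and blue lower, and the vertical line parts WT from KO. The KO 1 column is mostly red and the KO 2 column mostly blue, while WT 1 and WT 2 differ in many members.

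Markers of the other cell types gave these sums beside the members. Markers of T and NK cells, the known sources of interferon gamma, summed to 9.12 and 5.31 FPKM (WT) and to 5.42, 2.46 and 2.96 FPKM (KO). The mean of each of the 14 was lower in KO, but each was below the filter of 1 FPKM over the 5 libraries. Beside this and the counts of means below, 61.4% of all genes tested had a positive KO minus WT difference. Markers of B and plasma cells summed to 174 and 492 FPKM (WT) and to 112, 133 and 38.6 FPKM (KO), most of it from Igha, Igkc and Jchain. Of these markers, 6 of 8 means were lower in KO, and those of Cd79b and Ms4a1 were higher. Endothelial markers summed to 50.1 to 56.2 FPKM (WT) and 52.4 to 83.6 FPKM (KO), with 7 of 8 means higher in KO, and those of stellate cells and fibroblasts to 82.9 to 103 FPKM (WT) and 92.2 to 138 FPKM (KO). Hepatocyte markers summed to 108282 to 149472 FPKM (WT) and 123813 to 125026 FPKM (KO), with WT 1 the highest. Cholangiocyte markers came to 150 and 423 FPKM (WT) and 334, 154 and 348 FPKM (KO), nearly all of it from Spp1, and Krt19, a keratin of bile duct cells, had its highest value, 1.81 FPKM, in KO 2. Conventional dendritic cell markers came to 2.69 and 5.83 FPKM (WT) and 4.13, 2.30 and 3.31 FPKM (KO). Neutrophil markers summed to 5.57 to 6.57 FPKM (WT) and 4.73 to 8.87 FPKM (KO). Markers of plasmacytoid dendritic cells, the specialised producers of type I interferon, came to 400.3 and 207 FPKM (WT) and 314, 315 and 246 FPKM (KO), with 6 of 7 means lower in KO. Most of this sum was Ly6d, and the list also holds the member Bst2. Siglech, a surface lectin among them, was at 0.14 and 0.93 (WT) and 0.30, 0.19 and 0.37 FPKM (KO). None of the 10 marker lists had a gene at 0 in all libraries, and their part in the members' differences was not tested.

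The ligands of the pathway were almost absent from the table's values. Of 21 interferon genes, 19 were listed at 0 in all 5 libraries, among them Ifnb1, the first type I interferon made by most cells, and Ifnl2 and Ifnl3, the type III interferons. Ifng was listed at 0.03 FPKM in KO 3 and at 0 in the other libraries, and Ifnz at 0.05 FPKM in KO 2 and KO 3. An entry of 0 FPKM gives no upper limit, since the depth is unknown.

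The receptors were present, and 5 of 6 were tested. Ifngr1, the ligand-binding chain of the interferon gamma receptor, was at 28.9 and 20.04 (WT) and 41.6, 33.3 and 34.3 FPKM (KO), all above WT, with a log2 difference of 0.57 (95% interval 0.10 to 1.04, unadjusted p = 0.0224, limma adjusted p = 0.999). Ifngr2, the second chain, was at 9.20 and 7.13 (WT) and 8.83, 8.0 and 7.52 FPKM (KO), a difference of -0.00089. Ifnar2 was at 60.1 to 61.1 FPKM (WT) and 53.8 to 58.1 FPKM (KO), and Ifnar1 at 9.66 to 10.6 and 10.6 to 12.9 FPKM. Il10rb, shared by the interleukin 10 and type III interferon receptors, was at 5.19 to 6.36 FPKM (WT) and 5.78 to 8.99 FPKM (KO), and Ifnlr1, its type III partner, had values of 0.37 to 0.53 FPKM.

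Of the kinases and STATs, none of 5 passed. Jak1, a kinase shared by both receptors, was at 24.6 and 33.0 (WT) and 33.2, 24.4 and 28.2 FPKM (KO). Tyk2, bound to the type I receptor, was at 3.67 and 5.03 (WT) and 5.59, 4.12 and 4.23 FPKM (KO). Jak2 and Stat3 had differences of 0.25 and -0.043.

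Negative regulators had 10 of 12 members tested, with 5 differences in each direction and none past the threshold. Those with the smallest unadjusted p were Pias1, a SUMO ligase (0.27), Trex1, the nuclease that clears cytosolic DNA (-0.26), and Ptpn2, a phosphatase of the JAK-STAT pathway (0.25). Upstream sensors, adaptors and kinases had 13 of 17 tested, 10 with positive and 3 with negative differences and none past the threshold. Irf5, Ifi204 and Tbk1 had differences of 0.24, 0.30 and 0.20.

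Of further induced genes outside the members, 49 of 63 (62 of them in the table) were tested, none past the threshold, with 30 positive and 19 negative differences and a median of 0.049. Tgtp1, another immunity-related GTPase, was at 2.60 and 5.21 (WT) and 3.10, 0.92 and 1.14 FPKM (KO) (log2 difference -0.88, 95% interval -1.69 to -0.075, limma adjusted p = 0.999). It has a near-identical copy, Tgtp2, so that their reads may be divided arbitrarily. Gbp9 was at 1.89 and 1.78 (WT) and 1.33, 0.92 and 1.22 FPKM (KO). Gm4951, a GTPase gene near Iigp1 on chromosome 18 (60212080 to 60247820, plus strand) and similar to it, was at 9.15 and 15.6 (WT) and 16.7, 15.4 and 27.0 FPKM (KO), with KO 3 highest as in Iigp1. Over all 6 lists of pathway genes, 82 genes were tested, 0 passed, and 2 (Ifngr1 and Tgtp1) had an unadjusted p under 0.05, where 3.23% of all genes tested had one.

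**Figure D5:**
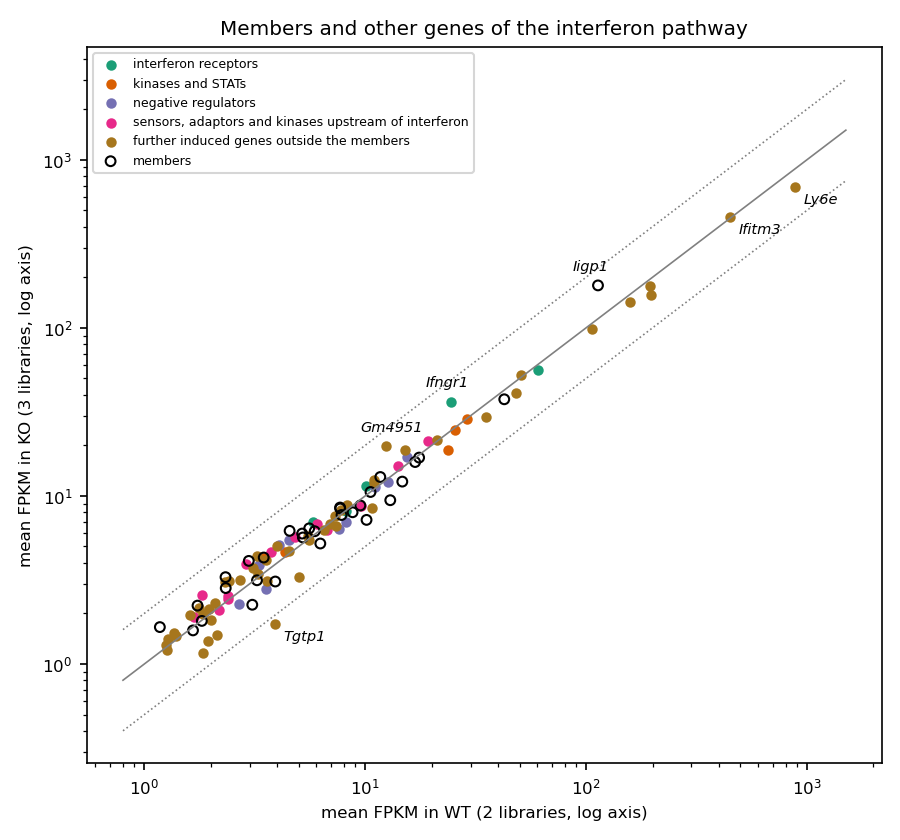
Mean FPKM in KO (3 libraries) against mean FPKM in WT (2 libraries), both on log axes, for the 31 tested members (open circles) and 82 other tested genes of the pathway (filled, by list); the solid line marks equal means and the dotted lines a 2-fold ratio. Tgtp1 lies outside the dotted lines, and the other genes, Iigp1 included, lie within them.

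The differences of members with an ISRE core in their window went both ways. Of the 14 that were tested, 8 had a positive difference, with a median of 0.010, and of 11 tested members with a window but no match, 8 had a positive difference, with a median of 0.14. The difference between these groups of members was not tested.

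The authors' deposited table gives no member a false discovery rate under 0.05, where it does so for 36 genes of the table. In the authors' deposited table Iigp1 has the smallest values among the members, with a log2 fold change of 0.66, a p-value of 0.00486 and a false discovery rate of 0.565, and Usp18 follows with a log2 fold change of -0.49 and a p-value of 0.0201. These values rest on the same 5 libraries and are no independent check.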

How the data were processed

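The authors deposited 1 table with an FPKM value per gene and library, rounded to 2 decimals per the file headers and values, together with the authors' mean FPKM per genotype, log2 fold change, p-value and false discovery rate. Per the submitters' processing notes the build was mm10 and the tools were limma, DESeq2, StringTie, HISAT2 and bcl2fastq 2.0, listed without a role; the roles, the annotation and the strand setting were not given in these sources. All members and gene lists were chosen with earlier results of these data known. The lnc-CTHCC transcript was not analysed here.

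Values were taken as log2(FPKM + 1). Genes with a mean of at least 1 FPKM over the 5 libraries (10132) were fitted together with limma 3.58.1 in R 4.3.3 (empirical Bayes with a trend, two-sided, 3 residual degrees of freedom), and p-values were adjusted over all of them. Fold changes on this scale understate changes of low genes. The script was tested on simulated data. Each library's values were given for the 10 members with the smallest unadjusted p, the 5 with the highest mean and the transcription factors, and for further members for completeness; of each pathway list, up to 3 genes with the smallest unadjusted p, the receptors, Jak1 and Tyk2 were named, and 1 gene of the lists is not reported here by name. Motif windows came from RefSeq (GRCm38.p6) and coordinates from GENCODE vM21 (GRCm38, the assembly of mm10). With 2 and 3 libraries no exact permutation test can reach a p of 0.05, so none was used. The alternatives were other pseudocounts, filters, scalings, no trend, each library left out in turn and a block on the replicate number. Figures were drawn with matplotlib 3.10.9.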

Additional observations from a re-analysis of the deposited data

How the results depend on the processing

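There were 14 alternatives, and no member passed the threshold in any that kept both WT libraries. The median difference of the members stayed between -0.043 (without KO 1) and 0.18 (without KO 2) in all 14, within 1 SD of the value with all libraries. Over all genes, the count past the threshold was 1 as reported, 0 under each of the 3 scalings (quantile, median-ratio and common sum), without a filter, with the filter at 5 FPKM and with a pseudocount of 5, and 0 to 17 with 1 library left out (17 without WT 1). With the replicate block it was 62, of which 0 were members, and the smallest adjusted p of a member was 0.9999. The labels do not say that the numbers pair the samples; deviations of WT 1 and KO 1 correlated at 0.088 and those of WT 2 and KO 2 at -0.24 across genes. Of 219 comparisons of 16 named members with an alternative, 214 kept the direction and 5 turned it. Many of these could not turn it: the other filters and the fit without a trend leave each difference unchanged. The replicate block gave the same differences as leaving out KO 3, whose number no WT library shares. The 214 are therefore no measure of stability. With 1 library left out, Irf1 ranged from -0.51 to 0.10, Irf7 from -0.18 to 0.089 and Irgm1 from -0.27 to 0.12, the cause of which was not tested. A pseudocount of 5 lowered the differences of the low members (Ifit2 to 0.11 and Ifi44 to 0.19), as its construction does. A mean FPKM of at least 5 left 20 members tested. Lack of overlap with KO higher was found in 6 members as reported, 7 after rescaling to a common sum and 3 after median-ratio rescaling or quantile normalization.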
